A study of Mus musculus with 2 samples.

Results

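The USP21 peaks on mouse chromosome 11 comprised 236 regions. They were selected by chromosome from the 4117 peaks that the authors called for USP21 in mouse embryonic stem cells (mESCs), of which they made up 5.73%. Chromosome 11 was picked with its peak number already known, so its density is given as a description. The study expressed Flag-tagged USP21 in E14 cells, an established mESC line grown without feeder cells on gelatin in serum medium with leukaemia inhibitory factor (LIF), and immunoprecipitated chromatin with an anti-Flag antibody (ChIP). The data held 2 libraries, 1 Flag-USP21 ChIP library with a peak list and 1 Input library made without antibody, whose reads were not used here. Each group thus had 1 library and no replicate, which allowed no test between samples, and peaks were not treated as replicates. The intervals given with the values are 95% intervals and cover counting error across peaks only. The anti-Flag antibody recognises the tag, and so the introduced USP21. The paper names it for ChIP with PCR, while its sequencing methods name no antibody. No ChIP from cells without the tag was analysed here, so peaks that do not depend on the tag cannot be told apart.

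USP21 is a deubiquitinase, an enzyme that removes ubiquitin from proteins. Ubiquitinated histone H2A, a mark laid down by Polycomb complexes, is among its known substrates, and the study was concerned with its action on Nanog, a transcription factor of pluripotency. ChIP detects DNA held near a protein, whether the protein touches the DNA itself or is brought there by a partner. Chromosome 11 is among the most gene-dense mouse chromosomes, and an extra copy of it, or of chromosome 8, is known to arise in mESCs in culture. The copy number in the E14 cells was not measured here.

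Each peak in the list had a position and a score. In the layout of the peak caller, MACS14, the score is 10 times the negative log10 of a p-value for the ChIP tags against background, where a tag is 1 aligned read. A p-value of 0.0001 thus gives a score of 40, and p-values of 1e-05 and 1e-10 give 50 and 100. Positions are in the mm9 build named in the submitters' processing notes. Genes and sequences at the peaks were not analysed here, because an mm9 genome was not used.

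First, the density of the peaks was compared with that of the other autosomes. Chromosome 11 carried 1.99 peaks per Mb of sequence without assembly gaps, and the 18 other autosomes together carried 1.63 per Mb (3703 peaks). The ratio was 1.22 (exact interval 1.07 to 1.39), and chromosome 11 ranked 5th of 19 in density. With fewer peaks the interval included 1, at 1.18 (0.973 to 1.42) for scores from 50 upwards and 1.25 (0.845 to 1.79) for scores from 100 upwards. The 4 denser autosomes were chromosomes 14, 1, 8 and 6. Against the 14 autosomes that remained when these were also set aside, the ratio was 1.54 (1.34 to 1.76), which is higher by construction, since the densest were left out. Chromosome 11 had 1639 protein-coding genes, or 13.8 per Mb, second only to chromosome 7 with 14.3 per Mb. It therefore held 14.4 peaks per 100 genes, below the median of 17.3 over the other 18 autosomes and 13th of 19 in rank. Per gene, the ratio was 0.745 (0.651 to 0.850) against the 18 other autosomes and 0.982 (0.855 to 1.12) against the 14. Chromosome 11 thus had more peaks per Mb and fewer per gene than the pooled peaks of the 18 other autosomes gave. Against the 14 autosomes it also had more peaks per Mb, but the interval of the ratio per gene included 1.

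The score of many peaks could be read as a Poisson tail. With a background of 8.13 tags per kb over the width of the peak, or over 104 bp for narrower peaks, the scores of 93 of the 236 peaks (39.4%, 33.1 to 46.0%) matched a whole number of ChIP tags to within 0.015. These are called peaks at the background rate, because the mean against which they were scored was that of the genome as a whole. The other 143 peaks had been scored against another mean and are called peaks off the background rate. The list does not state how the score was made, so this reading rests on the match alone. On the 18 other autosomes 54.8% of the peaks were at the background rate (53.2 to 56.4%), and on the 14 autosomes 67.1% were. The share on chromosome 11 was 18th of 19, with only chromosome 14 lower (19.4%). Chromosomes 8 (41.0%) and 1 (43.9%) were next above it.

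Both kinds of peak were then counted per Mb. Peaks at the background rate were found at 0.783 per Mb on chromosome 11 and at 0.891 per Mb on the other autosomes, and the interval of the ratio included 1 (0.879, 0.706 to 1.08). By contrast, peaks off the background rate were denser, at 1.20 per Mb against 0.735 per Mb (ratio 1.64, 1.37 to 1.95). Against the 14 autosomes the ratio was 0.903 (0.724 to 1.11) for peaks at the background rate and 2.83 (2.35 to 3.40) for peaks off it. Thus, the higher density of chromosome 11 lay in the peaks off the background rate. In peaks at the background rate it ranked 14th of 19, and in peaks off it 4th.

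**Figure D1:**
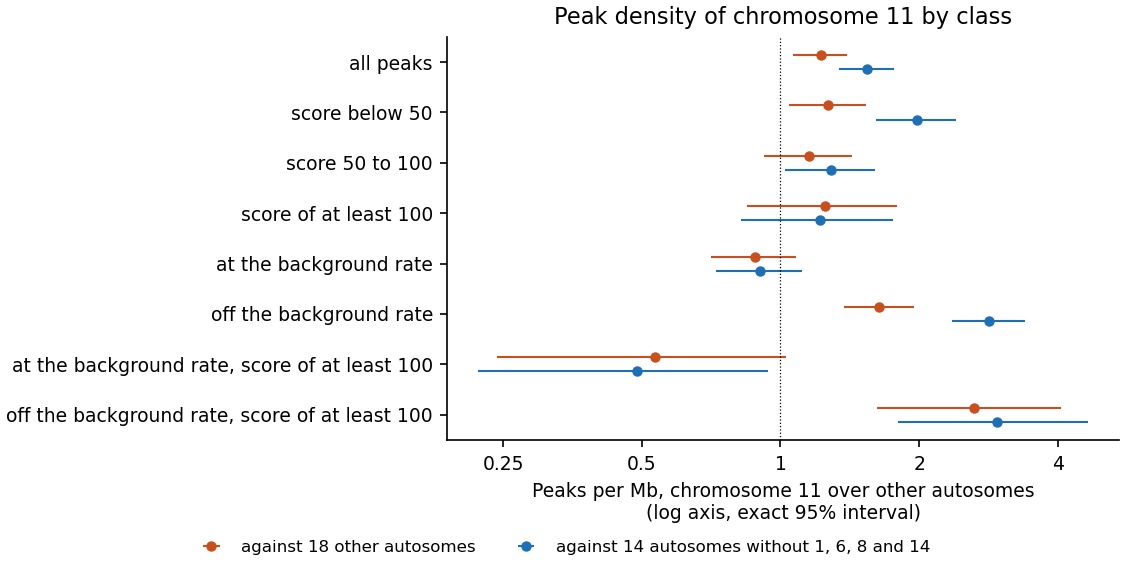
Peaks per Mb on chromosome 11 divided by peaks per Mb on the 18 other autosomes (orange) or on the 14 autosomes without chromosomes 1, 6, 8 and 14 (blue), for each class of peak. Points are ratios on a log axis, bars are exact 95% intervals and the dotted line marks equal density. The ratios for peaks off the background rate lie at 1.64 and 2.83, and those for peaks at the background rate at 0.879 and 0.903.

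The same split was seen in the high-scoring peaks. Of the 32 peaks that scored 100 or more, only 9 were at the background rate (28.1%, 13.7 to 46.7%). This share was the lowest of the 19 autosomes, the others running from 37.5% on chromosome 8 to 86.2% on chromosome 13, with 65.8% (61.4 to 70.0%) over all 18. The interval of chromosome 11 overlapped those of several autosomes, chromosomes 1, 8 and 14 among them. The 23 high-scoring peaks off the background rate were at 2.63 times the density of the other autosomes (1.62 to 4.07), whereas the 9 at the background rate were at 0.534 times (0.242 to 1.03). The low-scoring peaks, below 50, were split in the same direction. There were 72 off the background rate, at 1.45 times the density of the other autosomes (1.13 to 1.85), and 43 at the background rate, at 1.05 times (0.753 to 1.43).

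**Figure D2:**
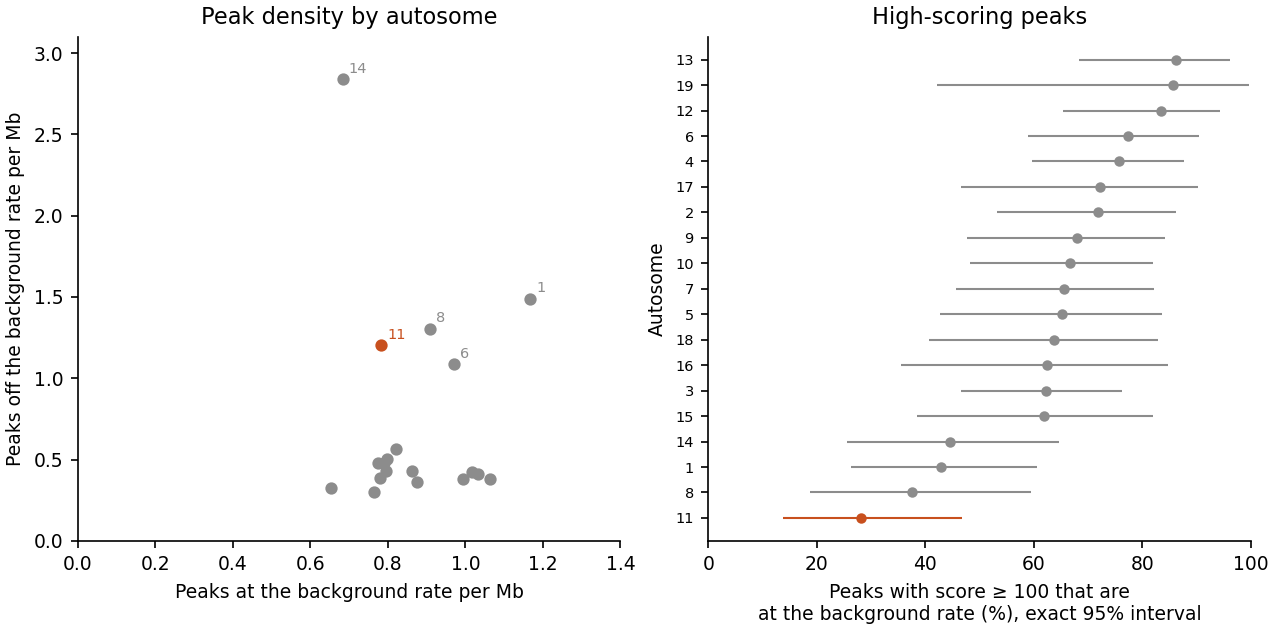
Left, each autosome by its peaks per Mb at the background rate and off it, with chromosome 11 in orange and the other 4 dense autosomes numbered. Right, the share of each autosome's high-scoring peaks (100 or more) that were at the background rate, with exact 95% intervals. Chromosome 11 lies at 0.783 and 1.20 peaks per Mb on the left and lowest on the right, at 28.1%.

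Next, it was asked which means the other 143 peaks had been scored against. MACS14 can take the mean of a peak from control tags counted in the peak itself or in a window around it, and such means are whole multiples of the weight of 1 control tag. A weight of 1.69, fitted on the whole list, was used to look for such means in the peak, in a window of 2 kb and in a window of 20 kb. These are not the program's default windows of 1 and 10 kb, and were taken because the scores matched them, so how the windows were set is not known. With the fitted weight, 126 of the 143 peaks off the background rate (88.1%, 81.6 to 92.9%) matched, compared with at most 12.6% at 12 other weights tried. The peak itself and the 2 kb window alone matched 84 peaks (58.7%), compared with at most 6.29% at the other weights. The 20 kb window alone is less certain. It matched 46 of the 143 peaks, compared with at most 11 at the other weights, and over the whole list 358 of 1905 peaks, compared with at most 185. The weight had been chosen for the number of scores it matched at a mean of 1 control tag, chromosome 11 included. A higher match than at other weights was thus partly built in, and is no independent test of the reading. Any single match can be a coincidence, and the shares and ratios that follow are not corrected for such matches.

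A mean from the 2 kb window was found for 60 peaks of chromosome 11 (25.4%, 19.997 to 31.5%), from the 20 kb window for 42 peaks (17.8%, 13.1 to 23.3%) and from the peak itself for 24 peaks (10.2%, 6.63 to 14.8%). For 17 peaks (7.20%) no mean was recovered. On the 18 other autosomes these shares were 18.01%, 7.59%, 10.3% and 8.91%, and on the 14 autosomes 12.9%, 1.92%, 10.1% and 7.69%. Chromosome 11 was 2nd of 19 after chromosome 14 in both window shares, and 10th of 19 in the share scored from the peak itself. The 20 kb share was 17.6% on chromosome 8, 15.9% on chromosome 1 and 10.3% on chromosome 6. Per Mb, peaks with a mean from the 20 kb window were at 2.87 times the density of the 18 other autosomes (2.02 to 3.97), peaks with a mean from the 2 kb window at 1.73 times (1.302 to 2.25), and peaks scored from the peak itself at 1.21 times (0.766 to 1.83). Against the 14 autosomes, the ratio was 3.03 (2.25 to 4.02) for the 2 kb window and 1.55 (0.971 to 2.36) for the peak itself. No ratio to the 14 is given for the 20 kb window, because their 42 peaks of this kind could be coincidental matches. They are also among the 281 peaks behind the ratio to the 18 for this window, so that ratio is uncertain too.

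In the 2 kb windows the median was 12 control tags (11 to 13, range 10 to 27), compared with 11 (11 to 11) on the 18 other autosomes, where the background rate corresponds to 9.59 tags. The intervals met at 11 tags. The median was higher on chromosome 14 (13.5, 13 to 15), and it was 11 (11 to 12) on each of chromosomes 1, 6 and 8. Windows at or below the background could not enter this count, since MACS14 uses the larger mean. The mean in these windows was 1.25 times the background (1.15 to 1.36) on chromosome 11 and 1.15 times on the others. Means above 3 times the background were not considered, and this count covers only the 60 peaks with a mean from the 2 kb window.

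The peaks at the background rate allowed the number of ChIP tags to be read. Of the 93, a tail beyond 7 tags gave the score of 44 (47.3%), and the median was a tail beyond 8 tags, as on the other autosomes. A tail beyond more than 10 tags was found for 16 (17.2%), compared with 25.3% on the other autosomes, and beyond more than 20 tags for 4 (4.30%), compared with 4.98%. The highest was a tail beyond 37 tags. Most of these peaks thus rested on few reads, which limits how well their position and score are known. Some scores recurred. A score of 41.55 was shared by 10 peaks of 134 to 173 bp, and it is the tail beyond 8 tags at a mean of 1 weighted control tag. For 1 of these peaks, of 162 bp, it is also the tail beyond 7 tags at the background rate, and that peak was counted as such. A score of 57.52, the tail beyond 10 tags at the same mean, was shared by 4 peaks of 124 to 176 bp. In all, the 236 peaks carried 192 different scores.

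**Figure D3:**
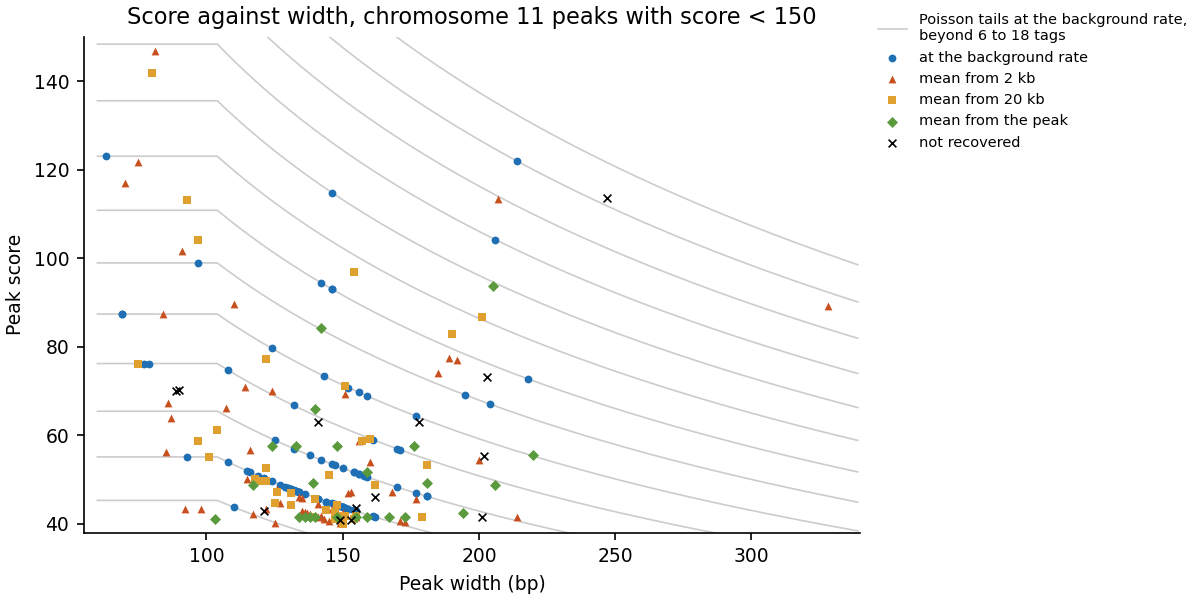
Score against width (bp) for the chromosome 11 peaks with a score below 150, marked by the mean that their score matched. Grey lines are Poisson tails at the background rate, beyond 6 tags (lowest line) to 18 tags (highest line), flat below the 104 bp window. The peaks at the background rate lie on the lines, and the peaks with other means lie mostly off them.

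The scores of chromosome 11 were modest. The median was 50.5 (48.2 to 53.5), with quartiles of 43.6 and 70.9, and it ranked 16th of the 19 autosomes, with 54.9 as the middle of the other 18 medians. Over all peaks of the other 18 together the median was 51.2, inside the interval of chromosome 11. A score below 50 was found for 115 peaks (48.7%, 42.2 to 55.3%), the 4th highest share. A score of at least 100 was found for 32 peaks (13.6%, 9.46 to 18.6%), 13th in rank and close to the 13.3% of the other autosomes. The highest score, 478.48, was the 32nd highest in the whole list and 17th of 19 among the highest scores of each autosome. Chromosome 11 supplied 0 of the 20 highest-scoring peaks of the list, 2 of the first 50 and 7 of the first 100.

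The 10 highest-scoring peaks were mostly short and lay apart from each other. The highest, chr11:116954721-116954797, was 77 bp wide, with a score of 478.48 at the background rate. The second, chr11:61467847-61467932 (86 bp), had a score of 385.41. Scores just above 311 were given to chr11:56989541-56989751 (211 bp, 311.78) and chr11:89591414-89591524 (111 bp, 311.12), the latter at the background rate with a tail beyond 27 tags. Next came chr11:50945631-50945701 (71 bp, 273.76), chr11:7006353-7006447 (95 bp, 268.78) and chr11:107940487-107940563 (77 bp, 264.16). The last of the 10 were chr11:92624133-92624248 (116 bp, 233.91, at the background rate), chr11:115274614-115274696 (83 bp, 228.52) and chr11:69836365-69836520 (156 bp, 224.07). Of the 10 peaks, 6 were narrower than 100 bp, 3 were at the background rate and 2 were in clusters. Their median width was 90.5 bp. At the other end of the scale, the lowest scores were 40.03 (chr11:89314639-89314788), 40.18 (chr11:83859655-83859803) and 40.21 (chr11:15943220-15943344), just inside the limit of 40 in the list.

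The widths of the whole set did not stand apart. The median was 144 bp (140 to 147 bp), with quartiles of 122 and 156 bp. The middle of the other 18 medians was also 144 bp, and the median over all their peaks together was 145 bp. Peaks under 100 bp numbered 35 (14.8%, 10.6 to 20.02%), compared with 12.5% on the other autosomes. The range was 63 to 328 bp, and 51 peaks of the other autosomes (1.38%) were wider than any on chromosome 11. The widest were chr11:33595187-33595514 (328 bp, score 89.23), chr11:98174657-98174903 (247 bp, 113.59) and chr11:67446731-67446950 (220 bp, 55.6). The narrowest were chr11:108412984-108413046 (63 bp, 123.03), chr11:112223684-112223752 (69 bp, 87.39) and chr11:48647386-48647454 (69 bp, 87.39).

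The median width was lowest among the high-scoring peaks, with an interval that overlapped those of the other classes. The median width was 147 bp (141 to 149 bp) below a score of 50, 145 bp (132 to 154 bp) between 50 and 100, and 94 bp (83 to 144 bp) from 100 upwards. On the other autosomes it was 146 bp (145 to 147 bp), 138 bp (136 to 142 bp) and 140 bp (131 to 148 bp). Of the high-scoring peaks of chromosome 11, 19 of 32 (59.4%, 40.6 to 76.3%) were narrower than 100 bp, compared with 33.2% (29.0 to 37.6%) on the other autosomes. This was the highest share of the 19, but chromosome 13 was close (58.6%) and had a lower median width in this class (90 bp). Across the 236 peaks, score and width were negatively correlated (Spearman's rho = -0.23, Pearson's r = -0.25). The value of r was the lowest of the 19, the other autosomes running from -0.14 to 0.78, whereas rho was 15th. The points share 1 library and 1 background, and the score at a given number of tags falls with width above 104 bp by construction.

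**Figure D4:**
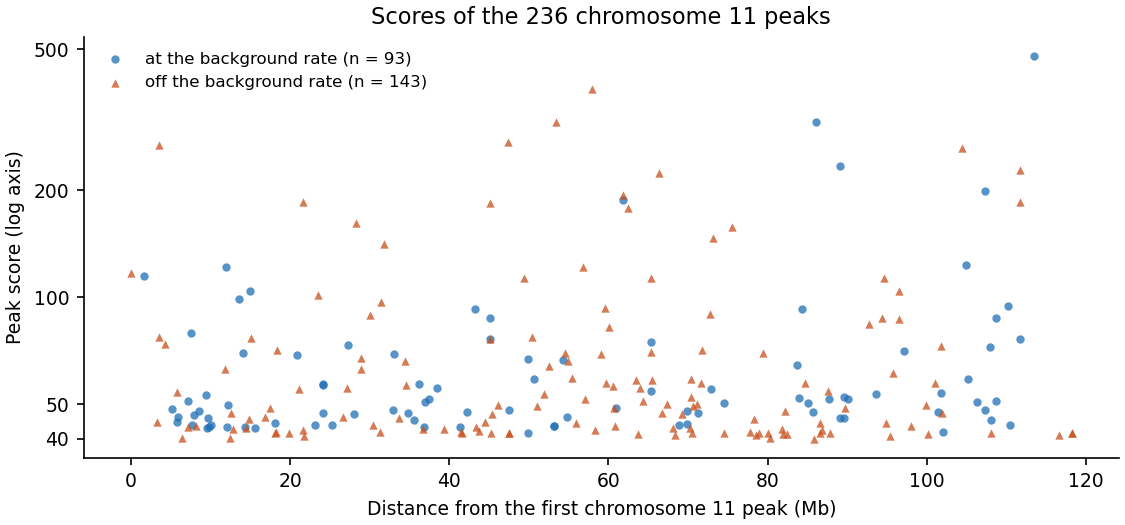
Score (log axis) of each chromosome 11 peak against its distance from the first peak in Mb, with peaks at the background rate as blue circles (n = 93) and peaks off it as orange triangles (n = 143). Peaks cover the whole length at scores near 40 to 50, and the 32 high-scoring peaks, from 100 upwards, are spread along it.

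Along the chromosome, the peaks ran from chr11:3509469-3509538 (70 bp, score 116.96) to chr11:121731199-121731339 (141 bp, 41.59). In 10 Mb bins, the 11 bins between the first and the last held 13 to 27 peaks with a median of 20, and none of the 13 bins was empty. The variance over the mean of the inner bins was 0.811, where randomly scattered points would give about 1, and for bins of 1 Mb it was 1.07. The fullest bins were those from 10 to 20 Mb (27 peaks), from 60 to 70 Mb (25) and from 70 to 80 Mb (23). In bins of 1 Mb counted from the first peak, 15 of 118 (12.7%) were empty, the lowest share of the 19 autosomes. The next lowest was chromosome 1 (12.95%), which had more peaks per Mb, and the median over the other 18 was 29.6%. With 1 Mb bins of the coordinates, 17 of 117 inner bins of chromosome 11 were empty. Such bins were not counted on the other autosomes, so the rank can depend on where the bins start. The fullest 1 Mb bin of the coordinates was that from 48 to 49 Mb, with 7 peaks and scores from 41.61 to 184.91. Bins with 5 peaks were those from 15 to 16, 68 to 69 and 73 to 74 Mb, and several had 4. Beyond the midpoint between the first and the last peak lay 113 peaks (47.9%, 41.4 to 54.5%).

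The kind of peak was also counted along the chromosome. When the stretch was cut into 3 equal segments, the proximal segment held 82 peaks, of which 48.8% (37.6 to 60.1%) were at the background rate. In the middle segment, from 42.9 to 82.3 Mb, 26.4% of 87 peaks (17.6 to 37.0%) were, and in the distal segment 44.8% of 67 peaks (32.6 to 57.4%). No other autosome was cut in this way, so how far such shares differ along other chromosomes was not measured. The share of high-scoring peaks was 10.98%, 14.9% and 14.9% in the same order, with overlapping intervals. In the bin from 60 to 70 Mb, 21 of 25 peaks were off the background rate and 16% (4.54 to 36.1%) at it. It held 7 high-scoring peaks, the most of any 10 Mb bin. The interval of its share overlapped those of all other bins except 10 to 20 and 110 to 120 Mb. The bin from 10 to 20 Mb was the reverse, with 18 of its 27 peaks at the background rate (66.7%, 46.0 to 83.5%) and 2 high-scoring peaks. Near the distal end, the bin from 110 to 120 Mb also had most of its 13 peaks at the background rate (76.9%, 46.2 to 94.96%), and 4 high-scoring peaks.

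**Figure D5:**
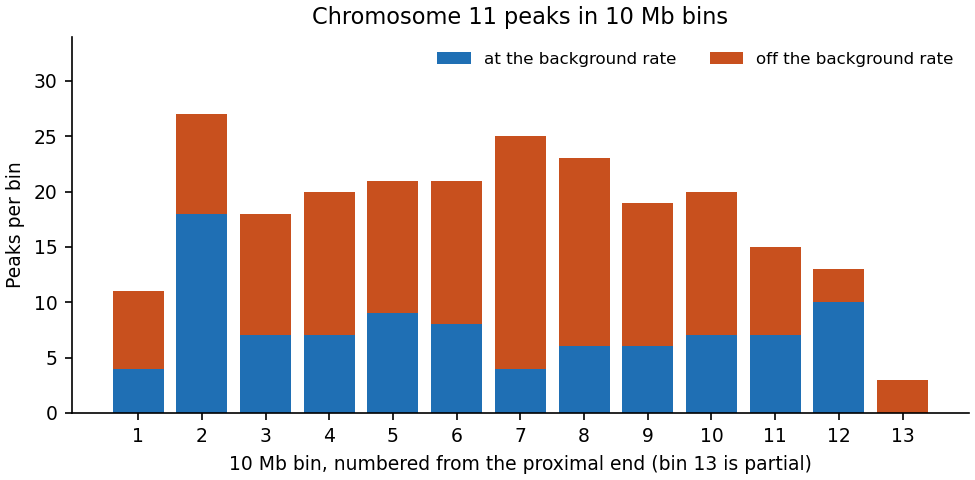
Number of chromosome 11 peaks in each 10 Mb bin, numbered from the proximal end, split into peaks at the background rate (blue) and off it (orange). Inner bins hold 13 to 27 peaks, with the fewest at the background rate, relative to the bin's total, in bin 7 (4 of 25) among them.

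The median gap between neighbouring midpoints was 328 kb (277 to 420 kb), 15th of 19, and the mean was 503 kb. The ratio of median to mean, 0.653, was near the 0.693 of randomly scattered points and 5th highest of the 19 autosomes. That ratio says little about the shortest gaps, of which 6 were under 1 kb, so it does not show random spacing at short distances. Of the 235 gaps, 31 exceeded 1 Mb and 4 exceeded 2 Mb. The widest, of 3240 kb, followed the highest-scoring peak of the chromosome and ended at chr11:120195083-120195235 (score 40.98). The next, of 2701 kb, lay between chr11:93563641-93563794 (51.68) and chr11:96264745-96264886 (84.17). The third, of 2356 kb, lay between chr11:105584085-105584245 (41.72) and chr11:107940487-107940563, one of the 10 highest-scoring peaks. Only chromosome 17 had a smaller widest gap (3109 kb).

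Few peaks lay close together. Within 10 kb of another peak were 16 (6.78%, 3.92 to 10.8%), compared with 8.64% on the other autosomes and 12th in rank. This share was 20.1% on chromosome 14 and 6.04% (5.08 to 7.12%) on the 14 autosomes. Within 1 kb were 11 (4.66%, 2.35 to 8.19%), compared with 2.57% (2.08 to 3.13%) on the other autosomes and 4th in rank. On the 14 autosomes it was 2.61% (1.98 to 3.37%). The 16 peaks formed 5 pairs and 2 triplets. One triplet spanned chr11:68851280-68854864, with scores of 54.48, 70.36 and 74.71. The other spanned chr11:115274290-115275173, with scores of 76.22, 228.52 and 185.8, and held 2 of the 3 clustered peaks that scored 100 or more. The third such peak, chr11:7006353-7006447, lay 164 bp from chr11:7006142-7006330 (score 77.44), measured between midpoints. The closest pair was chr11:112223526-112223681 (51.24) and chr11:112223684-112223752 (87.39), with midpoints 114.5 bp apart. In the first triplet, chr11:68854477-68854566 and chr11:68854757-68854864 were 289 bp apart. Whether pairs this close are separate regions cannot be read from the list.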

How the data were processed

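Flag-USP21 ChIP and Input libraries of E14 cells were grouped by sample title. The authors deposited, for the ChIP library, a list of peak positions with a score per peak, as written by their peak caller and used here only within the list. The submitters' processing notes name CASAVA 1.4, Bowtie 0.12.7 and mm9. The methods name Bowtie with uniquely mapped reads, mm10, and a later MACS run for broad peaks against IgG, but the identifiers are those of MACS14. The control behind the list is not given in the sources used here, and the sequencing depth was not analysed here. Of all peaks, 20 on 7 chromosomes ended beyond their GRCm38 chromosome (0 on chromosome 11), so the list was not in that build. GRCm38 supplied only chromosome lengths without gaps, and GENCODE M21 the numbers of protein-coding genes, both as approximations. Starts were converted to 1-based positions.

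Shares have Clopper-Pearson intervals, medians order-statistic intervals and density ratios exact binomial intervals. The background rate, the 104 bp window and the control tag weight were fitted on the whole list, with scores matched within 0.015 at the background rate and within 0.006 otherwise. The fit was also run on simulated data, whose outcome is not reported here. The recovery of means from the 20 kb window was not assessed there. Means up to 3 (2 kb), 1.25 (20 kb) and 8 (peak) times the background were considered. Peaks within 10 kb were chained into clusters. Named peaks were the 10 highest-scoring, the 3 widest, narrowest and lowest-scoring, the first and last, triplets, the 3 closest pairs and those beside the 3 widest gaps. The members, classes and lists were chosen with earlier results of these data known. Alternatives were stricter scores, 1 peak per cluster, other lengths, distances and tolerances, and other autosomes for comparison. The software was scipy 1.17.1 and numpy 2.4.6 with pandas 2.3.3 in Python 3.11.15, and figures were drawn with matplotlib 3.10.9.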

Additional observations from a re-analysis of the deposited data

How the results depend on the processing

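Of 43 alternative values, 32 stayed within the interval of the value reported and 11 did not. Leaving out the widest 1% of all peaks, above 397 bp, removed none of the 236. The median width and rho could therefore not change there, though both count among the 32. With scores of at least 50, the median gap was 644 kb and 55.4% of the peaks lay beyond the midpoint. With scores of at least 100, the gap was 3005 kb, the share beyond the midpoint 59.4%, the median width 94 bp, the share at the background rate 28.1%, and the density ratio 0.534 for peaks at the background rate and 2.63 for peaks off it. The gap widens because fewer peaks remain, and the cause of the other changes was not tested. Against the autosomes other than 1, 6, 8 and 14, the density ratio was 1.54, and 2.83 for peaks off the background rate. Within 50 kb of another peak were 19.1%. The density ratios for peaks at and off the background rate, and their alternatives, were added after seeing the data. The cut into 3 segments was not among the results planned beforehand. One peak per cluster left 227 peaks. The share of peaks at promoters was not run, since it needs an mm9 genome. No paired analysis was possible because no result comes from a test between samples and each group had 1 library. With 1 ChIP library, the spread of these values between libraries was not measured, and most peaks whose tags could be read rested on few of them.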
